A study of Mus musculus with 8 samples.

Results

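The SoxB and SoxC genes Sox1, Sox2, Sox3, Sox14, Sox21, Sox4, Sox11 and Sox12 were described in Ptf1a-lineage cells of the mouse fetal hypothalamus. The 8 genes were found by name among the 51826 genes of each deposited table, and all 8 were present and passed the low-count filter. RNA was sequenced from hypothalamic cells of embryonic day 14.5 that carried red fluorescent protein (RFP), with 4 libraries per genotype. The Ptf1a-cre Het group was Ptf1a cre/+; Ai9/+ (libraries 1 to 4) and the Ptf1a-cre Homo group was Ptf1a cre/cre; Ai9/+ (libraries 9 to 12), both of strain C57BL/6. Every group thus carried Ptf1a-cre and the Cre-dependent reporter Ai9, and no library came from animals without Cre. Cells were sorted on the reporter, so they had expressed Ptf1a-cre at some time or came from cells that had. The labels call the Het cells the control and the Homo cells the knockout, and they do not say whether a library was 1 embryo or a pool.

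Sox proteins bind DNA through a high-mobility-group (HMG) box related to that of Sry. The SoxB1 factors Sox1, Sox2 and Sox3 are activators that hold neural cells in the progenitor state, and Sox2 and Sox3 are needed for the ventral diencephalon and the pituitary axis. The SoxB2 factors Sox14 and Sox21 are repressors that share the SoxB box, and the SoxC factors Sox4, Sox11 and Sox12 act later, in newly formed neurons. Sox genes of these groups are mostly intronless, and each of the 8 is annotated here with an exon length equal to its gene length.

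Total exon reads per library ranged from 2502387 to 3009181. Ptf1a had 1 exon read in all Het libraries and 0 of 11018616 in the Homo libraries, which allows up to 0.272 CPM (counts per 1e6 exon reads), so the genotype labels could not be checked on it. Of the 10 hypothalamic markers, none was at 0 in all libraries, and their summed level was 860 to 1100 CPM in Het and 970 to 1319 CPM in Homo libraries, with 1 called higher and 4 lower of 9 tested, where 13.1% of all tested genes were called in either direction (edgeR, adjusted p under 0.05). The 6 neuron markers, with 3 called higher and 1 lower, summed to 4034 to 4653 CPM and 4102 to 5187 CPM, and the 6 progenitor and radial glia markers to 359 to 625 CPM and 454 to 843 CPM. Markers of other tissues varied by library: the 3 telencephalon markers summed to 106 to 148 CPM in Het and 4.21 to 113 CPM in Homo libraries, and the 5 mesenchyme and pericyte markers to 6.01 to 27.4 CPM and 7.02 to 205 CPM, with the highest value in Homo library 12. Markers of oligodendrocyte lineage, pituitary, endothelial, myeloid and erythroid cells summed to at most 114 CPM per list in any library, and the genotypes overlapped in each of these 5 lists. Their part in the results below was not tested.

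The SoxC factors Sox11 and Sox4 were the most abundant of the 8 genes per kilobase, and Sox3 and Sox21 the least. The authors' RPKM, reads per kilobase of exon scaled for library depth, compares genes of different length. In Het libraries it was 67.3 ± 9.27 for Sox11, 52.4 ± 8.90 for Sox4, 30.9 ± 7.10 for Sox12 and 30.3 ± 2.91 for Sox2 (SD, n = 4 throughout). Sox1 followed at 21.96 ± 5.28 RPKM, Sox14 at 17.4 ± 5.10, Sox3 at 8.25 ± 0.898 and Sox21 at 2.61 ± 0.405. Each of these levels exceeded the next in all 4 Het libraries, except that Sox12 was above Sox2 in 2 of 4. In Homo libraries Sox11 stood at 73.4 ± 18.4 RPKM, Sox4 at 62.5 ± 13.5, Sox2 at 27.4 ± 5.89, Sox12 at 25.6 ± 11.9, Sox1 at 16.8 ± 5.78 and Sox14 at 11.6 ± 5.03. The bottom of the order was exchanged there, with Sox21 at 3.42 ± 0.742 and Sox3 at 2.88 ± 0.975 RPKM. Sox21 was above Sox3 in 3 of 4 Homo libraries, and Sox2 was above Sox12 in 3 of 4, so neither pair was separated beyond the spread between libraries. The other neighbours kept their order in all 4 Homo libraries.

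**Figure D1:**
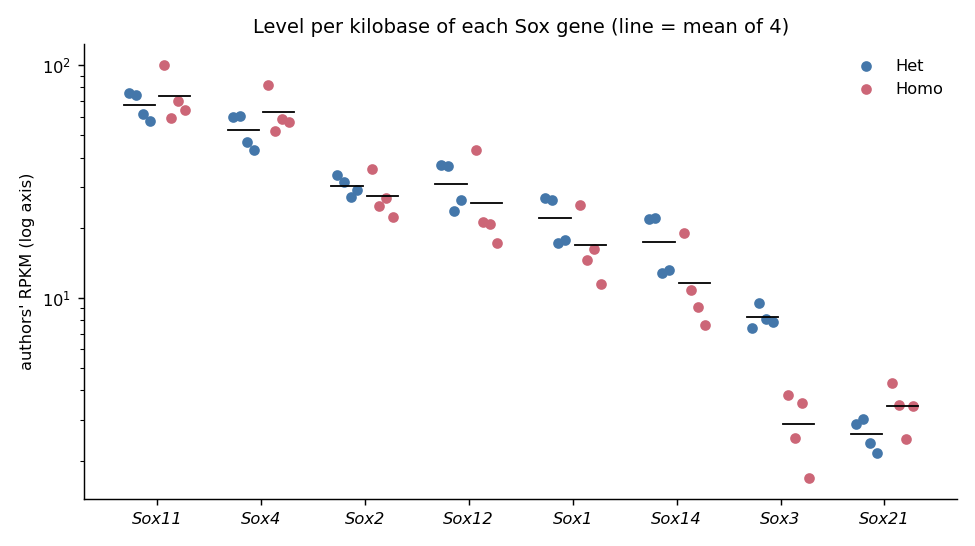
The authors' RPKM of each Sox gene in each library, on a log axis, with Het libraries in blue, Homo libraries in red and the mean of 4 as a line. Sox11 and Sox4 lie highest in both genotypes, and Sox3 moves from 8.25 RPKM in Het to 2.88 RPKM in Homo libraries, below the mean of Sox21.

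The deposited tables hold several read counts per gene, and the choice among them decides whether Sox1 and Sox2 are seen at all. Sox2 (chromosome 3, 34650405 to 34652461, plus strand) lies inside the long noncoding gene Sox2ot on the same strand. Of its total exon reads, 2345 in Het and 2241 in Homo libraries, 6 and 8 were counted as unique. Sox1 (chromosome 8, 12395295 to 12400126, plus strand) lies in the same way inside Gm5607, a sense-overlapping noncoding gene, and had 16 unique reads of 3941 in Het and 25 of 3204 in Homo libraries. The authors' expression value, which is close to the unique count, was 0 to 4 for Sox2 and 2 to 7 for Sox1 in a library. Of the 4 members that no gene overlaps, Sox3, Sox14 and Sox12 were 100% unique, and Sox11 was too except for 1 read in Homo library 12. Reads over the introns of Sox2ot numbered 54.9 per kilobase in Het and 65.1 in Homo libraries, or 4.82% and 5.98% of the density over Sox2. For Gm5607 the intron density was 8.12% and 8.55% of that over Sox1. Total exon reads were therefore used, and they cannot tell apart a Sox2 or Sox1 transcript and an unspliced transcript of the gene around it.

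Across the 8 genes, 2 were higher and 1 was lower in Homo cells at an adjusted p under 0.05 (edgeR quasi-likelihood test, Benjamini-Hochberg adjustment over all genes). Of the 12257 genes tested, 1603 were called, or 13.1%, with 6.96% higher and 6.12% lower. In CPM on scaled library sizes, the 4 libraries of each genotype did not overlap for 4 of the 8 genes, against 19.6% of all tested genes. These were Sox3, Sox21, Sox4 and Sox11. By the authors' RPKM, Sox21, Sox4 and Sox11 overlapped between the genotypes and Sox3 did not. The median log2 fold change of the 8 was -0.07, and that of all tested genes was 0.04. In bulk RNA, fewer cells of a type and less RNA per cell cannot be told apart.

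Direction followed GC content across all genes, and 5 of the 8 Sox genes lie in the class with the highest GC. When the 12238 tested genes with a transcript sequence were ranked by GC content in 5 classes, the GC-poorest class of 2447 genes had 477 higher calls and 8 lower calls. The GC-richest class of 2448 genes, with Sox1, Sox3, Sox14, Sox21 and Sox12, had 4 higher calls (0.163%) and 474 lower calls (19.4%). In the middle class, with Sox2 and Sox4, 3.31% were higher and 2.17% lower. The slope of log2 level on GC content, per 10 points of GC, was 0.24 ± 0.20 in Het and -0.24 ± 0.06 in Homo libraries. The genotypes did not overlap (exact two-sided permutation p = 0.0286, the smallest that 4 against 4 allows, and 0.0667 adjusted over 7 library measures). The Het libraries were split, with slopes of 0.40 and 0.41 in libraries 1 and 2 and of 0.05 and 0.08 in libraries 3 and 4. Homo libraries 9 to 12 stood at -0.18, -0.22, -0.23 and -0.31. Het libraries 1 and 2 also had smaller shares of gene reads over introns (63.8% and 63.9%) than libraries 3 and 4 (70.9% and 70.1%). Homo library 9 had 59.6%, and Homo libraries 10 to 12 had 67.7% to 69.2%. The part of this measure in the Sox values was not tested. A GC correction per library left 321 of 12238 genes called, or 2.62%, with 1.53% higher and 1.09% lower. Among the Sox genes it left 2 higher and 0 lower. Genes annotated like them, with an exon length equal to the gene length, were called in 13.8% of 383 cases (5.74% higher, 8.09% lower), and in 6.86% after the correction (3.69% higher, 3.17% lower). The fold change of each of the 8 genes is therefore given with and without it.

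**Figure D2:**
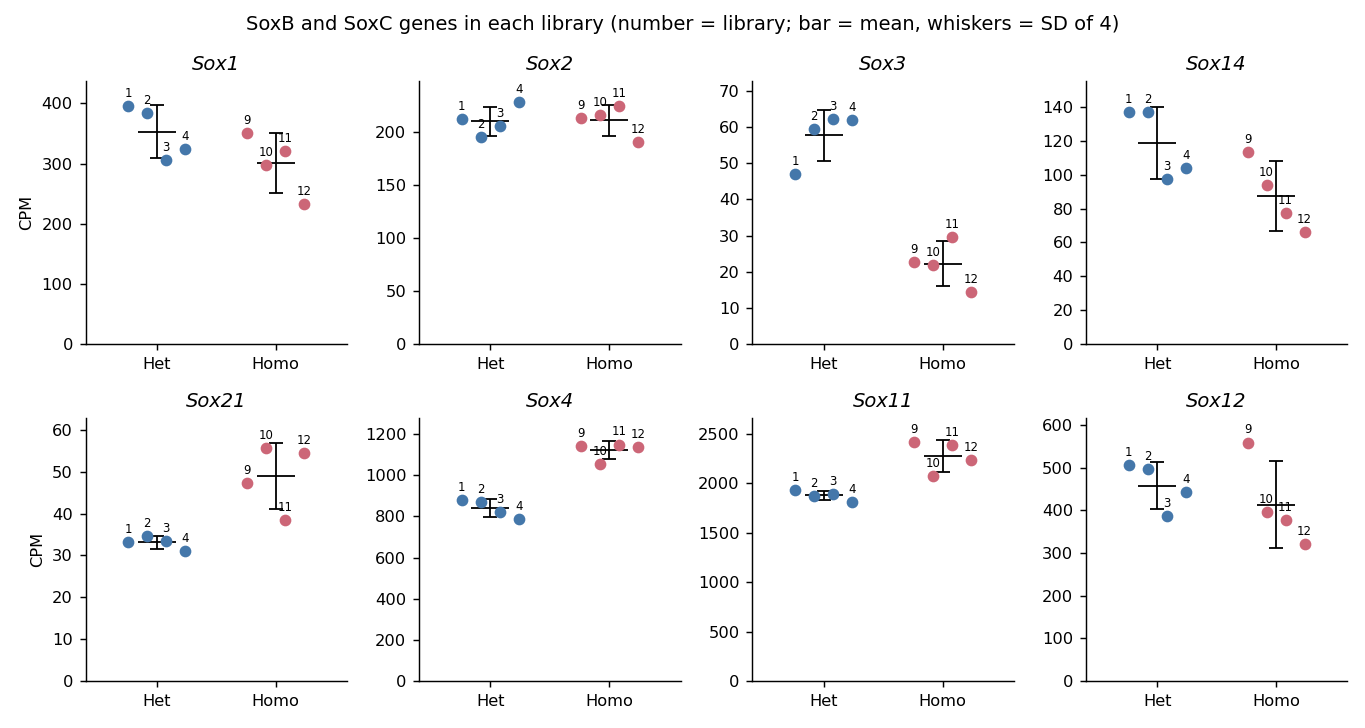
Level of each Sox gene in CPM on scaled library sizes, 1 panel per gene with an axis from 0, 4 Het libraries in blue and 4 Homo libraries in red, each marked with its library number, with the mean as a horizontal line and the SD as whiskers. The genotypes do not overlap for Sox3, Sox21, Sox4 and Sox11, while Sox2 stands at 191 to 228 CPM in all 8 libraries.

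Sox3, the X-linked SoxB1 gene whose dosage matters for hypothalamic and pituitary development, fell. It lies on chromosome X at 60891366 to 60893430, minus strand. Its level was 47.1, 59.5, 62.0 and 61.9 CPM in Het libraries 1, 2, 3 and 4, and 22.8, 21.8, 29.7 and 14.5 CPM in Homo libraries 9, 10, 11 and 12. All Het values lay above all Homo values, and Homo library 12 was lowest. The means were 57.6 ± 7.14 and 22.2 ± 6.21 CPM, a log2 fold change of -1.37 ± 0.22 (SE, edgeR adjusted p = 0.00205). The GC correction took this to -0.74 ± 0.21 (adjusted p = 0.0826, 95% confidence interval -1.18 to -0.29), and the call was lost. Sox3 has the highest GC content of the 8, 66.4%. Of all tested genes, 33 had a GC content at or above it, so the trend there was fitted mostly on genes of lower GC. At the GC of Sox3 this trend differed by -0.64 between the genotypes (log2, Homo minus Het). Within 1 point of its GC, 22 tested genes, Sox3 included, had a median log2 fold change of -0.71, 8 were called lower and 3 were at or below the value of Sox3.

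The fall of Sox3 did not rest on 1 library. It was called in all 8 fits that left out 1 library, at log2 fold changes from -1.55 to -1.22, and in 0 of the 8 such fits with the GC correction, at -0.90 to -0.62. Reads of the Y-linked genes Ddx3y, Eif2s3y, Kdm5d and Uty summed to 96.4, 99.2, 179 and 0.346 CPM in libraries 1 to 4 and to 2.46, 193, 1.0996 and 0.393 CPM in libraries 9 to 12, so embryo sex varied within both genotypes. With the summed level as a covariate the log2 fold change of Sox3 was -1.38 (adjusted p = 0.0116). Beside these Y-linked sums, Sox3 stood at 47.1, 59.5, 62.0 and 61.9 CPM in libraries 1 to 4. In libraries 9 to 12 it stood at 22.8, 21.8, 29.7 and 14.5 CPM. Any further part of embryo sex in the level of Sox3 was not tested.

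Sox2, the SoxB1 factor that marks neural stem cells, did not differ between the genotypes beyond the spread of the libraries. Het libraries 1 to 4 held 213, 195, 205 and 228 CPM and Homo libraries 9 to 12 held 213, 216, 224 and 191 CPM. The groups overlapped fully. The log2 fold change was 0.01 ± 0.11 (adjusted p = 0.980), with a 95% confidence interval from -0.24 to 0.25, and 0.04 ± 0.11 after the GC correction (adjusted p = 0.896). Its transcript GC content of 50.5% is in the middle class, where the trend is near 0.

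Sox1, the third SoxB1 gene, did not pass. Het libraries 1 to 4 held 396, 383, 306 and 325 CPM and Homo libraries 9 to 12 held 350, 298, 321 and 233 CPM, with overlap between the genotypes. Its log2 fold change was -0.23 ± 0.14 (adjusted p = 0.304), and 0.12 ± 0.12 after the GC correction (adjusted p = 0.672, 95% interval -0.14 to 0.38). Within libraries, the log2 ratio of Sox3 to Sox2 reads was -1.87 ± 0.21 in Het and -3.28 ± 0.32 in Homo libraries, and did not overlap between them. The ratio of Sox1 to Sox2 was 0.74 ± 0.23 and 0.49 ± 0.18, with overlap. These ratios, and those of other Sox genes below, use reads without the GC correction, so they carry the GC trend. That trend differed between the genotypes by -0.64 at the GC of Sox3, -0.35 at that of Sox1 and -0.035 at that of Sox2 (log2, Homo minus Het).

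The genes around Sox2 and Sox1 were measured as well. Counted over its own exons, Sox2ot stood at 129.9 ± 10.3 CPM in Het and rose to 190.2 ± 20.8 CPM in Homo libraries, a log2 fold change of 0.55 ± 0.12 (adjusted p = 0.0121) that was 0.18 with the GC correction (adjusted p = 0.499). Gm5607 stood at 156 ± 11.7 and 129 ± 20.1 CPM (adjusted p = 0.201).

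Of the SoxB2 repressors, Sox21 rose and Sox14 did not pass. Sox21, which opposes SoxB1 activators in chick neural tube, lies on chromosome 14 at 118233232 to 118237030, minus strand. Its level was 33.2, 34.8, 33.5 and 31.1 CPM in Het libraries 1 to 4 and 47.4, 55.7, 38.5 and 54.6 CPM in Homo libraries 9 to 12. All Homo values lay above all Het values, and the Het libraries lay close together. The log2 fold change was 0.56 ± 0.18 (adjusted p = 0.0490), and 0.97 ± 0.18 after the GC correction (adjusted p = 0.00981). Without the correction the call held only without Homo library 11 among the 8 fits that left out 1 library (0.50 to 0.66). With it, all 8 such fits called Sox21, at 0.88 to 1.07. Uncorrected, the call was also lost with RLE size factors (adjusted p = 0.0558), upper-quartile scaling (0.0520), a 1 CPM filter (0.128) and no filter (0.237), at log2 0.43 to 0.55, and with reads over exons and introns together (log2 0.0031). Its transcript has 58.3% GC, in the class where 0.163% of genes were called higher, Sox21 among them. Within 1 point of its GC, 716 tested genes, Sox21 included, had a median uncorrected log2 fold change of -0.39, and 688 were at or below the value of Sox21.

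Sox14, a marker of GABA neurons in the caudal diencephalon, lies on chromosome 9 at 99874106 to 99876170, minus strand. Het libraries 1 to 4 held 137, 137, 97.5 and 104 CPM, and Homo libraries 9 to 12 held 113, 94.1, 77.3 and 65.9 CPM. The highest Homo library lay above the 2 lowest Het libraries. The log2 fold change was -0.44 ± 0.18 (adjusted p = 0.117), and -0.13 ± 0.15 after the GC correction (adjusted p = 0.728, 95% interval -0.46 to 0.20). It passed without Het library 3 or Homo library 9 among the fits that left out 1 library (-0.64 to -0.32). The log2 ratio of Sox21 to Sox14 reads was -1.82 ± 0.23 in Het and -0.82 ± 0.42 in Homo libraries, without overlap.

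Of the SoxC factors of young neurons, Sox4 rose in total exon reads, while Sox11 and Sox12 did not pass. Sox4 lies on chromosome 13 at 28948919 to 28953713, minus strand. Het libraries 1 to 4 held 880, 871, 823 and 787 CPM and Homo libraries 9 to 12 held 1145, 1057, 1150 and 1139 CPM. All Homo libraries lay above all Het libraries, with means of 1123 ± 43.9 and 840 ± 43.4 CPM. The log2 fold change was 0.42 ± 0.11 (adjusted p = 0.0206), and 0.49 ± 0.10 after the GC correction (adjusted p = 0.0161). Leaving out 1 library moved the value little, from 0.36 to 0.45, but the call held in 2 of 8 such fits (without Het library 1 or Homo library 10), and in 4 of 8 with the GC correction (without library 1, 3, 9 or 10, all fits at 0.47 to 0.53). With the Y-linked covariate neither Sox4 (0.42, adjusted p = 0.0751) nor Sox21 (0.62, adjusted p = 0.0845) passed. Sox4 was not called either with a 1 CPM filter (0.32, adjusted p = 0.109), with no filter (0.29, adjusted p = 0.272) or with exon and intron reads together (-0.11). Nor was it called by edgeR with unique exon reads (0.11, adjusted p = 0.562) or with the authors' expression value (0.12, adjusted p = 0.545).

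Sox11 lies on chromosome 12 at 27334264 to 27342574, minus strand, and had the most reads of the 8 genes. Het libraries 1 to 4 held 1931, 1872, 1890 and 1815 CPM and Homo libraries 9 to 12 held 2417, 2074, 2386 and 2232 CPM. The genotypes did not overlap, but the log2 fold change of 0.28 ± 0.11 did not pass (adjusted p = 0.0950), though it did with DESeq2 (log2 0.26, adjusted p = 0.0222). After the GC correction it was 0.08 ± 0.10 (adjusted p = 0.757, 95% interval -0.14 to 0.30). Its transcript, with a long 3′ untranslated region, has the lowest GC content of the 8, 46.5%.

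Sox12, the weakest activator of the SoxC group, lies on chromosome 2 at 152393611 to 152398063, minus strand. Het libraries 1 to 4 held 505, 497, 387 and 443 CPM and Homo libraries 9 to 12 held 559, 396, 378 and 321 CPM, with Homo library 9 highest of all. The log2 fold change was -0.15 ± 0.16 (adjusted p = 0.585), and 0.30 ± 0.13 after the GC correction (adjusted p = 0.253). The log2 ratio of Sox12 to Sox4 was -0.88 ± 0.14 in Het and -1.47 ± 0.34 in Homo libraries and overlapped between them, and that of Sox4 to Sox11 was -1.16 ± 0.05 and -1.02 ± 0.06 and did not overlap.

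**Figure D3:**
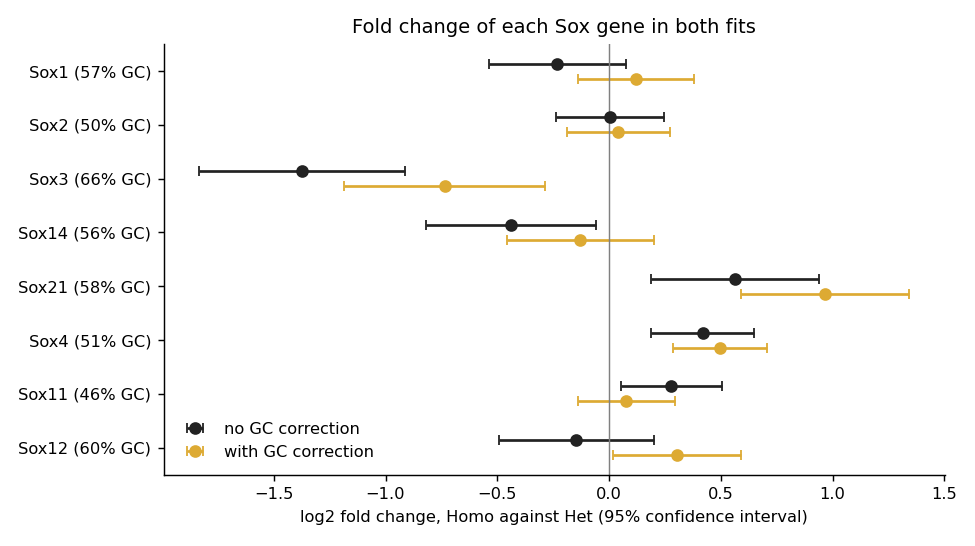
Log2 fold change of Homo against Het libraries for each Sox gene, with 95% confidence intervals, without (black) and with (yellow) the GC correction, and the transcript GC content beside the name. Sox4 and Sox21 stay above 0 in both, Sox3 moves from -1.37 to -0.74, and Sox1 and Sox12 change sign.

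**Figure D4:**
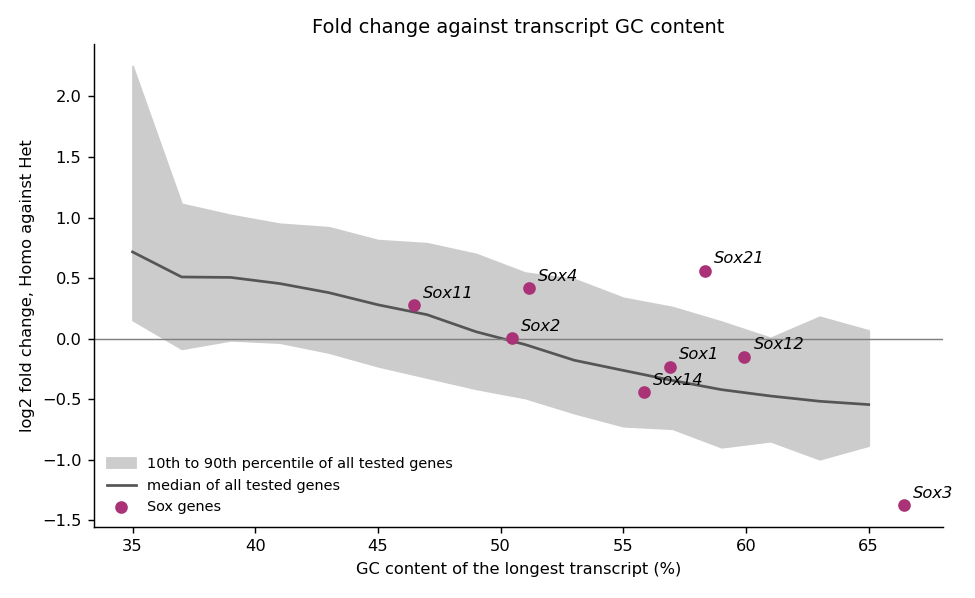
Log2 fold change against transcript GC content in percent, with the median and the 10th to 90th percentile of all tested genes in bins of 2 points (bins under 20 genes left out) and the 8 Sox genes as points. Sox21 lies above the band and Sox3 lies low, beyond the last bin drawn, while Sox1, Sox2 and Sox11 lie near the median.

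The reads of Sox4 and Sox21 could be split by place, since part of each exon overlaps an exon of a gene on the opposite strand. Bases 2043 to 4658 of the Sox4 transcript, a stretch of the 3′ untranslated region with 40.4% GC, are covered by an exon of Gm26735. The rest, which holds the whole coding sequence, has 64.0% GC. Gm26735 itself had 0 exon reads in Het and 29 in Homo libraries. The tables do not place reads along a gene. Nearly all reads of members without an overlapping gene were unique. The unique reads of Sox4 and Sox21 were thus taken to lie in the unshared stretch and the others in the shared stretch. The counting rule, not given in the sources used here, could alter this. Sox2 and Sox1 share 0 exon bases with the gene around them, yet few of their reads were unique. By whole span, introns included, the overlap is 2753 bases in Sox4 and 799 in Sox21, against 2616 and 713 by exon. The stretches given here are those by exon. The split into unique and shared reads was chosen after the values were seen.

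Without the GC correction, the shared stretch of low GC in Sox4 rose and the unshared stretch did not pass. Its reads were 322, 343, 346 and 307 CPM in Het libraries 1 to 4 and 495, 547, 587 and 619 CPM in Homo libraries 9 to 12, a log2 fold change of 0.77 ± 0.12 (adjusted p = 0.00170). The unique reads were 558, 528, 477 and 479 CPM and 650, 510, 563 and 520 CPM, and overlapped (log2 0.14 ± 0.12, adjusted p = 0.491). When each stretch was corrected by its own GC content, the order turned: the unique stretch stood at 0.72 ± 0.10 (adjusted p = 0.00243) and the shared stretch at 0.26 ± 0.13 (adjusted p = 0.329). The GC trend was fitted almost only on whole transcripts. Whether it holds for a stretch of a transcript was not tested, for Sox4 or for Sox21 below. The share of Sox4 reads that were unique was 60.7% ± 2.23 in Het and 49.9% ± 4.79 in Homo libraries, without overlap (exact two-sided permutation p = 0.0286, adjusted p = 0.0667 over 7 measures).

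In Sox21 the shared stretch is the part of high GC, and its fold change had the opposite sign without passing the test. Bases 87 to 799 of its transcript, all upstream of the coding sequence, overlap an exon of Gm4675 and have 68.2% GC, against 56.1% in the rest. The shared stretch held 62 reads in Het and 29 in Homo libraries (log2 -1.01 ± 0.77, adjusted p = 0.418), while the unique reads numbered 308 and 488 (log2 0.74 ± 0.18, adjusted p = 0.0180). After correction by the GC of each stretch these were -0.35 ± 0.75 (adjusted p = 0.865) and 1.06 ± 0.19 (adjusted p = 0.00788). The share of Sox21 reads that were unique was 83.4% ± 3.64 and 94.5% ± 4.87, without overlap (exact permutation p = 0.0286, adjusted p = 0.0667). In both genes the stretch with less GC thus took a larger share of the reads in all Homo libraries than in any Het library.

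**Figure D5:**
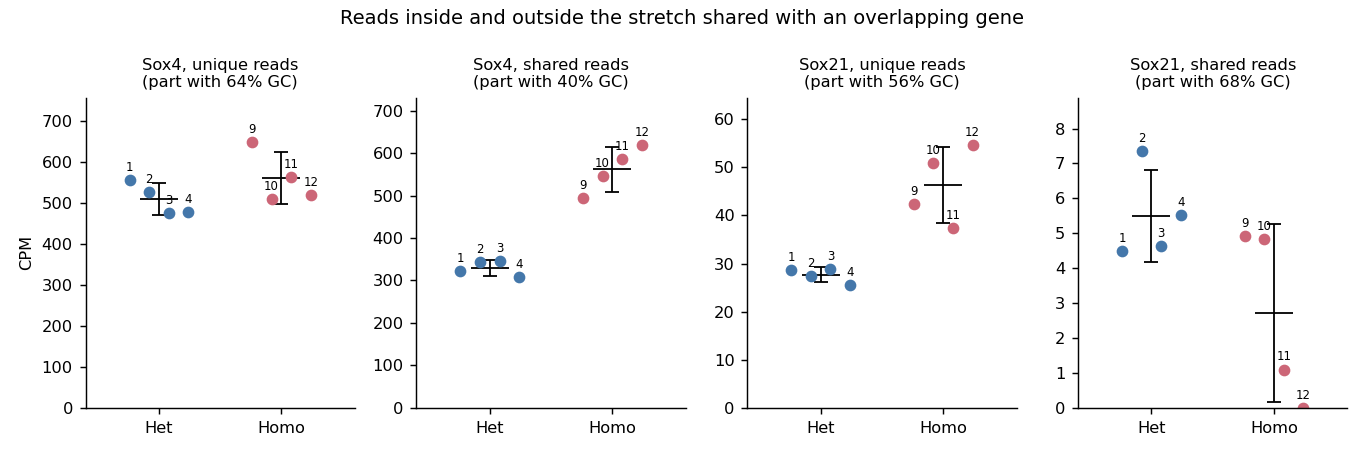
CPM of the unique reads and of the reads shared with an overlapping gene, for Sox4 and Sox21, in each library (numbers), with mean and SD of 4 and axes from 0. The shared reads of Sox4 rise from 307 to 346 CPM in Het to 495 to 619 CPM in Homo libraries, while its unique reads overlap between genotypes.

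The promoter windows of Sox4 and Sox21, the genes called higher in both fits, are shown for the binding letters of the PTF1 complex, which joins an E-box bound by Ptf1a and its E-protein partner with a TC box bound by Rbpj or Rbpjl. The windows run from 250 bases before to 50 after the transcription start, from RefSeq on GRCm38.p6, for the minus strand and written 5′ to 3′. Capitals mark each match to CANNTG (E-box) or to TGGGAA and its reverse complement TTCCCA (TC box).
Sox4, chr13:28953650-28953949: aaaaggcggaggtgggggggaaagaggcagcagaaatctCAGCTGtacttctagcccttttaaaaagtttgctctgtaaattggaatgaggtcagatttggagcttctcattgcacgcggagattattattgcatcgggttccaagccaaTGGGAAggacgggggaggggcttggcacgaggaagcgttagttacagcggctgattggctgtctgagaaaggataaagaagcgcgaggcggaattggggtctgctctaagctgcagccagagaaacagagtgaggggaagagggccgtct
Sox21, chr14:118236981-118237280: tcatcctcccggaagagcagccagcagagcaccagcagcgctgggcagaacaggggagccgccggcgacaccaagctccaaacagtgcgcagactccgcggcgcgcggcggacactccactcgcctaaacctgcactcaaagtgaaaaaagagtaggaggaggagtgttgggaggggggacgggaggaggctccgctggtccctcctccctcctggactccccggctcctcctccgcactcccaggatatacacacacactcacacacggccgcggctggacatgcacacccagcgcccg
The Sox4 window held 1 E-box match and 1 TC-box match, and the Sox21 window held 0 of either. The boxes were searched singly, with no rule on the distance between them, so a window with both is not thereby a joined site. Windows were present for 7 of the 8 genes, all but Sox3. Of these 7, 5 held an E-box match, against 72.3% of the 32851 windows of all genes, 2 (Sox4 and Sox1) held a TC-box match, against 25.6%, and Sox4 held both, against 19.0%. The Sox core letters ACAAAG, or CTTTGT on the other strand, were found in Sox2 alone of the 7, against 18.7% of all windows. GC content of the 7 windows ran from 52.0% in Sox4 to 76.7% in Sox12, and the median over all windows was 52.7%. These matches overlap no other motif searched in the printed windows and describe letters, not bound sites.

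Of the 12 other Sox genes, 4 had enough reads to be tested, and 1 was higher, 0 lower and 3 did not pass (median log2 0.33). Over all tested genes, 6.96% were higher and 6.12% lower. Sox5, a SoxD factor without a transactivation domain, was measured at 175.7 ± 13.0 CPM in Het and rose to 234 ± 28.2 CPM in Homo libraries (log2 0.41 ± 0.12, adjusted p = 0.0399). With the GC correction its log2 fold change was 0.11 (adjusted p = 0.692). Sox6, also SoxD, stood at 32.8 ± 12.8 and 45.9 ± 15.9 CPM (adjusted p = 0.278), the gliogenic SoxE factor Sox9 at 21.98 ± 5.48 and 26.3 ± 19.4 CPM (adjusted p = 0.706) and Sox13 at 12.7 ± 3.06 and 8.95 ± 3.26 CPM (adjusted p = 0.396). The 8 Sox genes under the filter had means from 0 to 5.70 CPM in either genotype.

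Among 24 SoxB partners and neural progenitor genes, 17 were tested, 1 was higher, 0 were lower and 16 did not pass (median log2 0.41, and 0.32 after the GC correction). Over all tested genes, 6.96% were higher and 6.12% lower. With the GC correction 1 of the list was higher and 0 lower, against 1.53% and 1.09% of all genes. Chd7, a chromatin remodeller that binds Sox2 in neural stem cells, had 203 ± 51.8 CPM in Het and rose to 308 ± 35.9 CPM (log2 0.60 ± 0.17, adjusted p = 0.0295). It passed with the GC correction as well, at 0.68 (adjusted p = 0.0498). The optic and hypothalamic homeobox gene Six6 stood at 36.5 ± 11.7 and 64.7 ± 21.7 CPM (log2 0.82 ± 0.27, adjusted p = 0.0575), and at log2 0.45 with the GC correction (adjusted p = 0.452). In the hypothalamic Shh and Tbx network in which Sox2 and Sox3 act, 6 of 12 genes were tested, 0 were higher, 1 was lower and 5 did not pass (median log2 0.22). The shares over all tested genes are the 6.96% and 6.12% given above. Nkx2-1, the factor of ventral hypothalamic identity, fell, with 281 ± 32.4 CPM in Het and 180.0 ± 34.3 CPM in Homo libraries (log2 -0.64 ± 0.15, adjusted p = 0.0137), and stood at -0.30 with the GC correction (adjusted p = 0.265). Shh, a morphogen gene with brain enhancers bound by Sox2 and Sox3, stood at 14.1 ± 4.42 and 18.9 ± 2.87 CPM (adjusted p = 0.357).

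Genes known as SoxC targets and other neuron differentiation genes mostly did not pass. Of 18, 17 were tested, 5 were higher, 2 were lower and 10 did not pass (median log2 0.28), where 6.96% of all genes were higher and 6.12% lower. With the GC correction 2 were higher and 0 lower (median log2 0.20), against 1.53% and 1.09% of all genes. St18, a Myt-family zinc finger gene, had 52.8 ± 8.48 CPM in Het and rose to 100.1 ± 15.4 CPM (log2 0.92 ± 0.16, adjusted p = 0.00358). With the GC correction it stood at 0.50 and no longer passed (adjusted p = 0.114). The neuronal RNA-binding protein gene Elavl4 rose too (log2 0.69, adjusted p = 0.00678), and stood at 0.12 with the correction (adjusted p = 0.735). Elavl3 of the same family (log2 0.54, adjusted p = 0.00958) and the adhesion molecule gene Ncam1 (log2 0.49, adjusted p = 0.0173) rose, and both passed with the correction (log2 0.77, adjusted p = 0.00208, and log2 0.49, adjusted p = 0.0327). The genes that fell, named after their values were seen, were Tubb3, a tubulin gene that Sox4 and Sox11 activate in chick (2078 ± 414 to 1379 ± 158 CPM, log2 -0.59, adjusted p = 0.0184), and Insm1, a zinc finger gene of neural progenitors (log2 -0.81, adjusted p = 0.0207), and neither passed with the correction (-0.20, adjusted p = 0.418, and -0.28, adjusted p = 0.518).

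Of 16 genes of the GABA neuron lineages that carry Sox14 or Sox21, 11 were tested, 0 were higher, 1 was lower and 10 did not pass (median log2 -0.17, and 0.13 after the GC correction). Over all tested genes, 6.96% were higher and 6.12% lower. Dlx2, which encodes a homeodomain factor of forebrain GABA neurons, had 56.0 ± 9.39 CPM in Het and fell to 27.7 ± 11.6 CPM (log2 -1.01 ± 0.25, adjusted p = 0.0171). With the correction it stood at -0.61 and no longer passed (adjusted p = 0.209). Six6, given above, is in this list too and did not pass.

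The genes whose log2 CPM followed each called Sox gene most closely over the 8 libraries were taken from 7277 tested genes with a mean of at least 20 CPM. For Sox3 they were Mirg (r = 0.965), Kmt2b (0.963) and Asphd2 (0.960), for Sox21 Cux1 (0.963), Nol12 (0.954) and Sarnp (0.939), and for Sox4 Wbp4 (0.988), Ubxn4 (0.982) and Morf4l1 (0.981), all Pearson correlations. The libraries share the genotype contrast and the GC slope, so these values describe likeness over 8 libraries.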

How the data were processed

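Each library was prepared from 10 ng of total RNA of RFP-positive cells, sorted after papain dissociation with dead cells removed, and sequenced as paired reads of 36 bases, per the labels' protocols. The authors deposited whole-number read counts per gene (total and unique, over exons, introns and the gene), RPKM and TPM, per the file headers. TPM was not used. Other columns hold lengths and exon numbers per the file headers. Genome builds are GRCm38 and mm10, per the submitters' processing notes. For the aligner, the counter and its use of strand, a name or setting was not given in the sources used here.

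Total exon read counts as deposited were tested with edgeR 4.0.16 in R 4.3.3 (filterByExpr, TMM, quasi-likelihood F test, Homo against Het, Benjamini-Hochberg over all tested genes). SE is the log2 fold change divided by the square root of F. CPM uses TMM-scaled library sizes. GC content is that of the longest GENCODE M21 transcript. The GC correction took a lowess trend (span 0.4) of each library's log2 deviation as an offset. DESeq2 1.42.0, other filters, scalings and read columns, a Y-linked covariate and fits without 1 library were alternatives. Fits were tested on simulated data. P-values measure the spread between libraries, which may be technical. Zero counts were given a limit of 3 reads, for counting error only. The genes and lists were chosen with earlier results of these data known. Named genes were the 8, genes overlapping them, up to 4 called genes per list by smallest p (2 smallest where fewer were called), the most abundant other Sox genes and the 3 genes most correlated with each called member. A further marker list, whose summed level did differ between the genotypes without overlap, is not reported here.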

Additional observations from a re-analysis of the deposited data

Results flagged for a closer look

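Sample values that stood apart from the other 3 libraries of their genotype were looked for in 55 groups of 4, of which chance marks about 1 in 20. Sox3 was low in Het library 1, at 47.1 CPM against 59.5 to 62.0 CPM. Sox4 was low in Homo library 10, at 1057 CPM against 1139 to 1150 CPM. Introns took 59.6% of gene reads in Homo library 9, against 67.7% to 69.2%. Y-linked reads stood at 193 CPM in Homo library 10, against 0.393 to 2.46 CPM.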

How the results depend on the processing

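No paired analysis was possible because the genotypes share no library number. Over 29 fits across all genes, Sox3 was below 0 and Sox14 and Sox21 kept their sign in every fit on all of a gene's reads that gave a value. Sox1 and Sox2 had too few unique reads for a value with unique exon reads or the authors' expression value, and all 8 genes passed the filter, so no permutation test at another pseudocount was needed. Sox4 was at 0.11 (log2, adjusted p = 0.562) with unique exon reads and at 0.12 (adjusted p = 0.545) with the expression value. Counting exon and intron reads together gave 6 calls and moved the median over the genes of the main fit from 0.04 to -0.22. Sox2 was then at -0.51, Sox3 at -1.87 (adjusted p = 0.0807), Sox21 at 0.0031, Sox4 at -0.11 and Sox11 at -0.24. Sox2, near 0, was at -0.014 with RLE size factors and with DESeq2, at -0.0099 with upper-quartile scaling and with the Y-linked covariate, at -0.12 with no low-count filter and at -0.089 with a 1 CPM filter. Sox21 was at 0.54 with RLE size factors (adjusted p = 0.0558) and 0.55 with upper-quartile scaling (adjusted p = 0.0520). With no filter, the median over the genes of the main fit was -0.08. Sox21 was then at 0.43 (adjusted p = 0.237), Sox4 at 0.29 (adjusted p = 0.272) and Sox14 at -0.56 (adjusted p = 0.0121). With a 1 CPM filter, Sox21 was at 0.46 (adjusted p = 0.128) and Sox4 at 0.32 (adjusted p = 0.109). DESeq2 called Sox11 at 0.26 (adjusted p = 0.0222). The Y-linked covariate left 569 calls, with Sox21 at 0.62 and Sox4 at 0.42, neither called. The GC correction left 321 calls, with Sox1 at 0.12, Sox12 at 0.30 and Sox3 at -0.74. Both together left 83 calls, with Sox1 at 0.13, Sox12 at 0.30, Sox3 at -0.76 (adjusted p = 0.198) and Sox4 at 0.48 (adjusted p = 0.0885). Genes of 1 exon alone gave 36 calls of 383, fewer genes being tested. Of the parts examined after the values were seen, the unique reads of Sox4 gave 0.14, its shared reads with the GC correction 0.26, and the shared reads of Sox21 -1.01 and, with the correction, -0.35. Without 1 library, calls ranged from 734 (without library 2) to 2077 (without library 3), and with the GC correction from 109 to 463. Without 1 library, then with the correction too, Sox1 ranged from -0.36 to -0.13 and 0.04 to 0.21, Sox2 from -0.053 to 0.051 and -0.0097 to 0.085, Sox3 from -1.55 to -1.22 and -0.90 to -0.62, Sox14 from -0.64 to -0.32 and -0.28 to -0.029, Sox21 from 0.50 to 0.66 and 0.88 to 1.07, Sox4 from 0.36 to 0.45 and 0.47 to 0.53, Sox11 from 0.20 to 0.32 and 0.02 to 0.12, and Sox12 from -0.38 to -0.04 and 0.14 to 0.38. Except where the construction shows it, the cause was not tested. Sox3 in Homo libraries, at 37 to 81 reads, and the shared stretch of Sox21 are limited by depth.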
